A study of Mus musculus with 13 samples.

Results

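Freshly sorted DN3 thymocytes of Opa1fl/fl;Lck-Cre+ mice were compared with those of WT;Lck-Cre+ mice by bulk RNA-seq. The comparison takes the 6 DN3 libraries of a series of 13, namely KO45, KO49 and KO51 against WT05, WT46 and WT48, each from a different mouse. They were chosen by stage and genotype as labelled, and no measured value entered the choice. All 6 mice were C57BL/6, were 6 weeks old by the labels, and carried the Lck-Cre transgene, so that the controls also express Cre. The transgene drives Cre in developing thymocytes, and only the first group carries floxed Opa1 alleles. The first group is called KO below and the second WT. The 7 DN4 libraries of the series, from the same 6 mice and 1 further WT mouse, are used beside the DN3 results. They also enter fits of all 13 libraries and a flagged DN4 value.

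DN3 cells are the double negative thymocytes that rearrange the T cell receptor β locus and express the pre-TCR before β-selection. Opa1 is a dynamin-like GTPase of the inner mitochondrial membrane, which it fuses, and it keeps the cristae in shape. When mitochondrial function or amino acid supply is disturbed, kinases of the integrated stress response phosphorylate eIF2α, general translation falls, and the transcription factor ATF4 is translated in its place. ATF4 then drives genes for amino acid synthesis and uptake, among them Asns, which makes asparagine from aspartate, Slc7a3, a carrier of cationic amino acids, and Slc7a11, the cystine and glutamate exchanger. Mitochondrial DNA itself encodes 13 proteins, all of them subunits of the respiratory chain or of ATP synthase. In bulk RNA, a change in the share of cells that express a gene and a change in RNA per cell cannot be told apart.

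WT05 stood apart from the other 5 libraries and is therefore left out in a second fit throughout. The libraries held 5926848 to 10990016 counts, the lowest in WT05. In WT05, 11 genes whose share was at least 20 times higher than in the others, with Gm42418 and Gm26917 at ribosomal RNA-like sequence among them, took 40.5% of the counts, against 0.401% to 0.702% in the others, which left 3528110 counts for the remaining genes. Its mitochondrial ribosomal RNA share was also the highest, 1.07% against 0.0494% to 0.104%. WT05 was depleted of short and enriched in long transcripts. Over 10783 protein-coding genes, the median log2 ratio of WT05 to the other WT libraries was -0.31 in the shortest of 4 equal classes of exon length and 0.41 in the longest, whereas WT46 against WT48 gave -0.015 and 0.014. The KO against WT comparison carried the same trend with the opposite sign, from 0.073 to -0.137, and without WT05 it ran from -0.014 to 0.014. Among the KO libraries KO45 was the most distant, and a per-library weighting gave it 0.349 and WT05 0.274, against 1.59 to 2.06 for the other libraries. WT46 alone expressed the Y-linked Ddx3y (1092 counts, 0 in each of the other 5) and had 2 counts of Xist, so that genotype and sex are partly confounded in both fits.

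**Figure D1:**
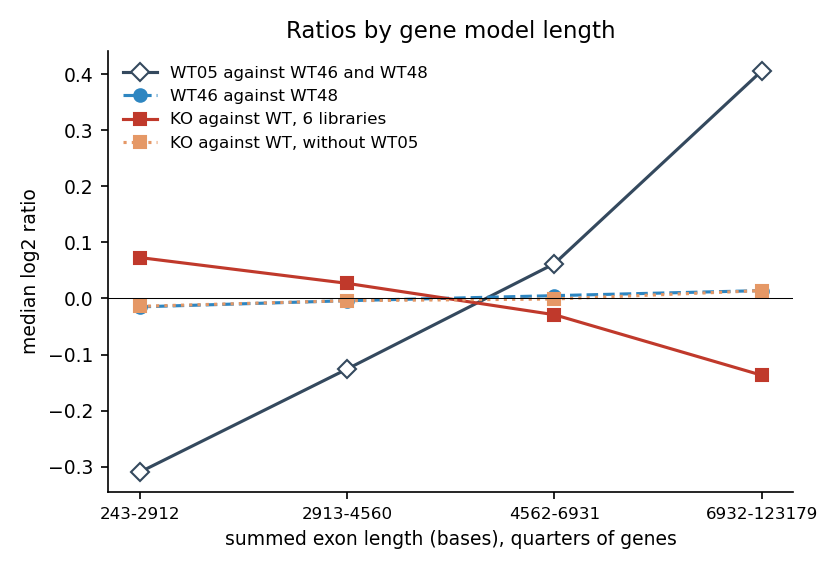
Median log2 ratio (y axis) of protein-coding genes in 4 equal classes of summed exon length in bases (x axis). WT05 against the mean of WT46 and WT48 (open diamonds) climbs from -0.31 to 0.41, KO against WT with all 6 libraries (red squares) runs the other way, and both WT46 against WT48 (circles) and KO against WT without WT05 (orange squares) stay between -0.015 and 0.014.

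Opa1 itself, the targeted gene, was counted at the same level in both groups. In CPM, the counts scaled to a common library size with TMM factors, KO held 85.8, 90.5 and 86.1 and WT 109, 89.0 and 87.9, and the groups overlapped. Here and below, values of KO stand in the order KO45, KO49, KO51, and values of WT in the order WT05, WT46, WT48. The log2 fold change of KO over WT was -0.12 ± 0.13 (SE), and -0.02 ± 0.10 without WT05. Counts summed over the whole gene include exons that Cre does not remove, so they do not check the deletion, and KO stands for the label here. The study itself reports reduced OPA1 protein in immunoblots of thymocyte lysates. Of 42 genes tested within 5 Mb of Opa1, 0 had an unadjusted p under 0.05, and 1 without WT05.

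No gene passed the test in DN3. With edgeR's quasi-likelihood test, 0 of 12105 genes (0.0%) had an adjusted p under 0.05, and the smallest adjusted p rounded to 1.0. At an unadjusted p under 0.05, 74 genes (0.611%) were higher and 94 (0.777%) lower in KO. DESeq2, the tool of the study, called 1 gene (0.00479% of those it gave an adjusted p), and limma-voom called 0. Without WT05 edgeR again called 0 of 12540 genes (0.0%), with a smallest adjusted p of 0.0613; here 165 genes (1.32%) were higher and 55 (0.439%) lower at an unadjusted p under 0.05. The split between higher and lower genes was not stable among fits that keep WT05 either, with 71 and 66 in limma-voom, 213 and 183 without KO45 and 101 and 54 without KO51, but 72 and 348 without WT46 and 90 and 405 without WT48. In both fits 79 genes had an unadjusted p under 0.05 with the same direction, 51 higher and 28 lower. The KO libraries all lay above the WT libraries for 361 genes (2.98%) and all below for 422 (3.49%), which are the shares against which the counts below should be read. The common biological coefficient of variation was 0.226 with 6 libraries and 0.156 without WT05. What follows therefore ranks and describes genes, none of which passed correction in these 2 edgeR fits.

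**Figure D2:**
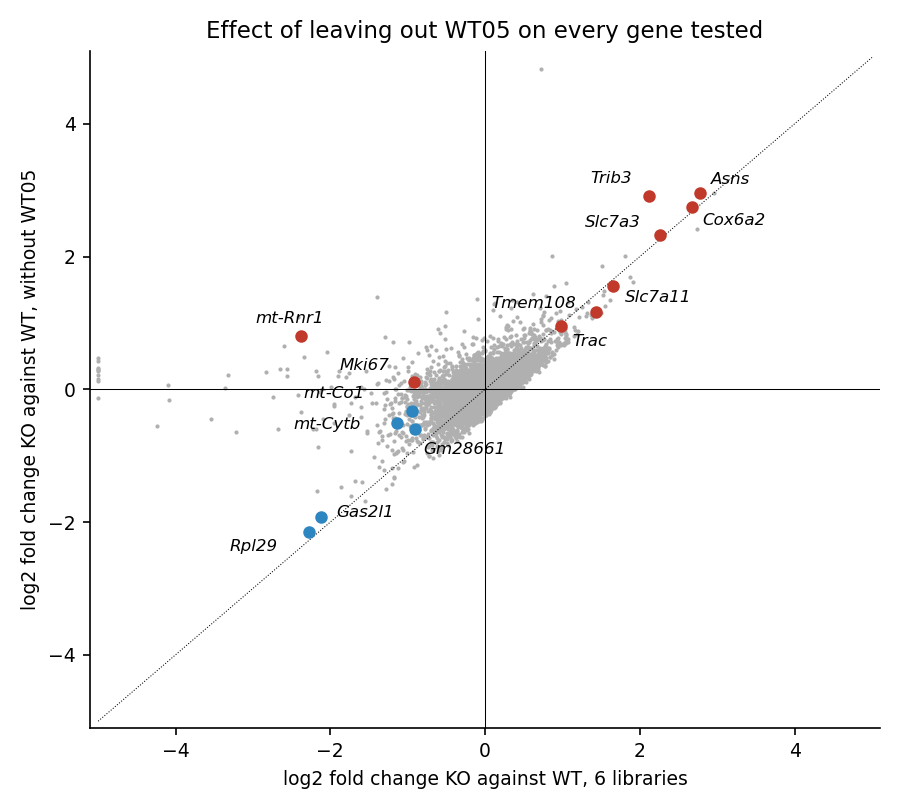
Each point is a gene tested in both fits, with the log2 fold change of KO over WT from all 6 libraries (x axis) against that without WT05 (y axis), both limited to -5 to 5, and with the line of equality dotted. Asns, Slc7a3, Slc7a11, Cox6a2 and Tmem108 lie near the line, while mt-Rnr1, Mki67, mt-Co1 and mt-Cytb lie far to its left.

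Genes for amino acid supply stood near the top of the ranking. Asns, asparagine synthetase (GRCm38 chr6:7675169-7693254), ranked 2 of all genes by p and 2 by fold change among those higher in KO. It was counted 61, 88 and 49 times in KO and 5, 7 and 11 times in WT, or 4.87, 11.3 and 4.62 CPM against 1.43, 0.60 and 1.17 CPM. Every KO library was above every WT library, with KO49 the highest. The log2 fold change was 2.78 ± 0.54 (SE; unadjusted p = 0.000679, adjusted p = 1.0), and 2.96 ± 0.58 without WT05 (unadjusted p = 0.000738). Over the 18 alternatives that tested it Asns lay between 2.23 and 3.01, the lowest without KO49, and it fails a filter of 10 counts in every library. DESeq2 without WT05 gave it an adjusted p of 0.00101.

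Slc7a3, the cationic amino acid carrier, ranked 4 by p. Its level was 2.24, 5.39 and 3.21 CPM in KO and 0.86, 0.86 and 0.53 CPM in WT, from 28 to 42 counts against 3 to 10. The groups did not overlap. The log2 fold change was 2.26 ± 0.51 (unadjusted p = 0.00184), and 2.32 ± 0.56 without WT05. Slc7a11, the cystine carrier, ranked 12, with 2.08, 2.70 and 2.36 CPM in KO and 0.57, 1.03 and 0.53 CPM in WT, and the groups again did not overlap. Its log2 fold change was 1.65 ± 0.46 (unadjusted p = 0.00625), and 1.56 ± 0.50 without WT05. Both carriers kept their sign in the 18 alternatives that tested them, from 1.87 to 2.52 for Slc7a3 and from 1.21 to 2.09 for Slc7a11; they too fail the filter of 10 counts in every library. These 3 genes sit at a few CPM, so that each WT value rests on 2 to 12 counts.

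Slc6a9, a glycine transporter, belongs to the same group and had 13, 19 and 24 counts in KO against 0, 9 and 4 in WT. Its levels of 1.04, 2.44 and 2.26 CPM in KO lay above all WT values, the highest of which was 0.77 CPM. The log2 fold change was 1.91 ± 0.69 (unadjusted p = 0.0221), and 1.61 ± 0.62 without WT05. Slc1a4, a carrier of neutral amino acids, had 2.56, 10.1 and 3.68 CPM in KO against 0.86, 2.57 and 2.34 CPM in WT. KO45 lay within the WT range, and the log2 fold change of 1.38 ± 0.60 had an unadjusted p of 0.0492, and of 0.0934 without WT05.

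None of the remaining genes of amino acid supply had an unadjusted p under 0.05. Of 20 ATF4 targets of this kind 18 could be tested, since Cbs and Cth were too low. Of the 18, 5 had an unadjusted p under 0.05, all higher in KO, and 4 had groups that did not overlap. Without WT05, 4 had such a p. Asns, Slc7a3, Slc7a11 and Slc6a9 had 0 to 12 counts in each WT library and passed the count filter through KO, where they were higher. Their direction was thus partly set in advance, and these counts are a description only. Fold changes were above 0 for 15 of 18, both with and without WT05, but their median log2 value was 0.146, and 0.147 without WT05, against -0.005 and 0.002 over all genes tested. That median was 0.289 without KO45 and 0.059 without KO49. Psph, the last enzyme of serine synthesis, came nearest, with 21.6, 31.9 and 27.6 CPM in KO against 12.9, 20.7 and 21.6 CPM in WT (0.52 ± 0.23, unadjusted p = 0.0529), and KO45 lay just below WT48. Gpt2, an alanine transaminase, had 2.88, 8.22 and 5.09 CPM in KO against 0, 3.08 and 4.68 CPM in WT (0.89 ± 0.74, and 0.46 ± 0.46 without WT05). The serine pathway enzyme Psat1 had 137, 209 and 172 CPM in KO against 155, 146 and 166 CPM in WT, a log2 fold change of 0.15 ± 0.17. Phgdh, the first enzyme of serine synthesis, gave 0.09 ± 0.16, and the leucine carrier gene Slc7a5 0.08 ± 0.18. Of 13 serine and one-carbon enzymes and 20 cytosolic tRNA synthetases, both regulated by ATF4 in other cells, 0 had an unadjusted p under 0.05 in either fit. Their median log2 fold changes were -0.007 and 0.016, and 0.011 and 0.038 without WT05. Among 17 enzymes and carriers of aspartate and proline use, Asns was the 1 with such a p, and the median was 0.006.

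**Figure D3:**
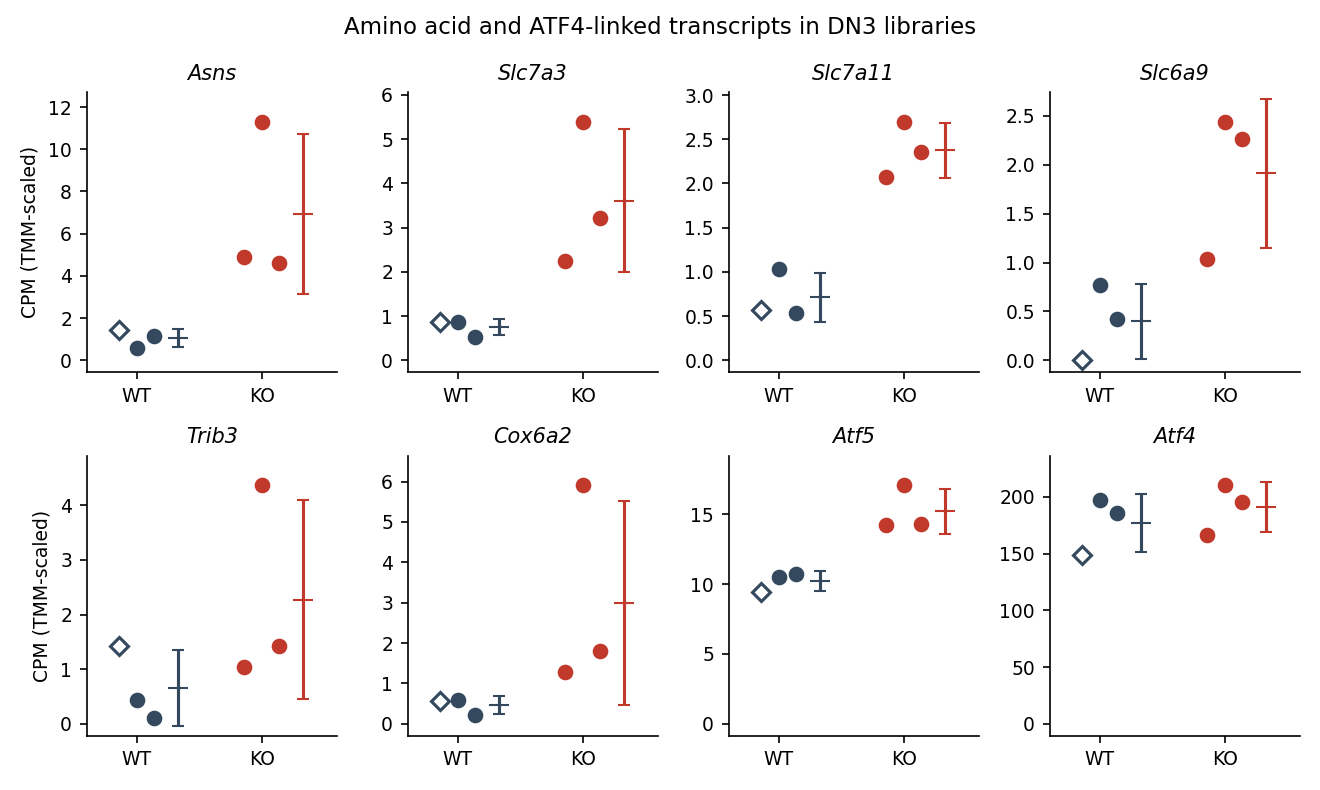
Level in CPM (y axis) of 8 transcripts in the 3 WT and 3 KO DN3 libraries; WT05 is the open diamond, and the bar beside each group is the mean ± SD. Asns, Slc7a3, Slc7a11, Slc6a9, Cox6a2 and Atf5 show no overlap between the groups, Trib3 overlaps through WT05, and Atf4 overlaps.

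Other stress genes downstream of ATF4 were higher for a few members only. Atf5, a transcription factor related to ATF4, had 14.2, 17.1 and 14.3 CPM in KO against 9.43, 10.5 and 10.7 CPM in WT, with no overlap. Its log2 fold change was 0.56 ± 0.19 (unadjusted p = 0.0175), and 0.51 ± 0.19 without WT05. Trib3, a pseudokinase that restrains ATF4 signalling, had 1.04, 4.37 and 1.42 CPM in KO and 1.43, 0.43 and 0.11 CPM in WT. Its groups overlapped through WT05 alone, and the log2 fold change went from 2.12 ± 0.90 (unadjusted p = 0.0428) to 2.92 ± 0.93 without WT05, and to 1.23 without KO49. Jdp2, a bZIP factor, had a log2 fold change of 0.81 ± 0.35 (unadjusted p = 0.0478, and 0.086 without WT05). Chac1, a glutathione-degrading enzyme, was too low to test, with 6, 7 and 3 counts in KO and 0, 1 and 2 in WT. Of 22 genes of this kind 15 were tested, 3 had an unadjusted p under 0.05, all higher in KO, and the median was 0.216 (2 and 0.206 without WT05). Without KO45 that median was 0.103. Trib3 passed the count filter through KO, where it was higher, so its direction was partly set in advance. Fgf21, Nupr1 and Stc2 had 0 counts in all 6 libraries, and Gdf15 had 2 counts in KO51 alone.

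The regulators of the response itself were near equal at the RNA level. Atf4 had 167, 210 and 196 CPM in KO against 148, 197 and 186 CPM in WT, a log2 fold change of 0.10 ± 0.16, and -0.007 without WT05. Ddit3, the factor CHOP, gave 0.22 ± 0.20. Of the sensor kinases, Eif2ak4, which senses uncharged tRNA, was lower in every KO library (34.9, 35.2 and 41.3 CPM) than in every WT library (42.9 to 50.3 CPM), with a log2 fold change of -0.28 ± 0.14 (unadjusted p = 0.0761). The kinase genes Eif2ak1, Eif2ak2 and Eif2ak3 overlapped between the groups, as did Oma1 and Dele1, which relay mitochondrial stress. Of 20 regulators tested, 1 (Atf5) had an unadjusted p under 0.05, and 2 (Atf5 and Impact) without WT05.

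The core of the amino acid response element, to which ATF4 and C/EBP proteins bind as dimers, reads TGATGNAA. It was searched on both strands of the RefSeq promoter windows of GRCm38.p6, which span 250 bases before to 50 after each start. It was found in 4 of the 15 genes of the amino acid list with a window (Asns, Slc7a11, Slc1a4 and Pycr1), and in 9 of 17 other ATF4 stress genes (Trib3 among them). Over all genes with a window 3.97% of 32851 windows and 4.51% of 27025 genes held it. Both lists were chosen as ATF4-linked genes, so a higher share could be foreseen and says nothing about KO. The 30 bases around the matches are shown for the 5 genes of both lists that hold one and had an unadjusted p under 0.05 in KO against WT, 5′ to 3′ on the strand of the gene, with each match in capitals:
Asns: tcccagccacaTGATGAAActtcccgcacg
Slc7a11: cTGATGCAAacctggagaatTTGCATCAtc
Slc1a4: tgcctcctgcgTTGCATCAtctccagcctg
Trib3: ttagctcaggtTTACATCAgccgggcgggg
Jdp2: atagccggggcTGATGCAAcccgtcccgcc
They lie at chr6:7693214-7693243, chr3:50443651-50443680, chr11:20332699-20332728 and chr2:152344028-152344057 on the minus strand, and for Jdp2 at chr12:85599372-85599401 on the plus strand. In Asns the match begins 23 bases before the RefSeq start; the GENCODE model whose coordinates are given above starts further upstream and includes it. Slc7a11 holds 2 matches on opposite strands, 66 and 47 bases before its RefSeq start. Slc7a3 has no window here and was not searched. Slc6a9 and Atf5, whose KO libraries also lay above WT, hold none in these windows, and Pycr1, which holds one, had a log2 fold change of 0.27 ± 0.46. Of the other stress genes that hold one, Herpud1 gave 0.17 ± 0.12 and Pck2 0.30 ± 0.24. Atf3, Chac1, Fgf21, Nupr1 and Vldlr hold one too and were too low to test. A match of these letters is a description and not a measured binding site.

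The summed level of mitochondrial DNA-encoded mRNAs was lower in every KO than in every WT library, with WT05 far above the rest, and none of these genes passed correction in DN3. The summed level of the 13 protein-coding genes was 9271, 7637 and 10720 CPM in KO and 32900, 12710 and 11180 CPM in WT. KO51 and WT48 were close. mt-Cytb, the cytochrome b of complex III, had 1783, 1392 and 1917 CPM in KO against 6349, 2674 and 2172 CPM in WT. The groups did not overlap, and the log2 fold change was -1.14 ± 0.40 (unadjusted p = 0.0199), and -0.51 ± 0.15 without WT05 (unadjusted p = 0.00997). mt-Co1, the catalytic subunit of complex IV, had 4646, 3668 and 4800 CPM in KO against 14230, 5705 and 5270 CPM in WT, also without overlap. Its log2 fold change was -0.94 ± 0.40 (unadjusted p = 0.0448), and -0.33 ± 0.13 without WT05 (unadjusted p = 0.0344).

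Of the complex I genes, mt-Nd6 went from -1.80 ± 0.87 to 0.18 ± 0.34 when WT05 was left out. For mt-Nd1, mt-Nd2, mt-Nd4 and mt-Nd5 KO51 lay above WT48, so the groups overlapped. Their log2 fold changes of -0.98 ± 0.41, -1.18 ± 0.43, -1.11 ± 0.44 and -1.21 ± 0.48 moved without WT05 to -0.32 ± 0.17, -0.46 ± 0.20, -0.36 ± 0.19 and -0.37 ± 0.19, none with an unadjusted p under 0.05. Of the 10 mitochondrial genes tested, 0 were above 0 in the log2 fold change of all 6 libraries and 1 (mt-Nd6) without WT05. The number with an unadjusted p under 0.05 went from 6 to 2, and the median from -1.04 to -0.34. mt-Co2, mt-Atp6 and mt-Co3 had at most 29 counts in a library. Copies of mitochondrial DNA on chromosome 1 that are nearly identical hold Gm28661 and Gm28437, and how reads with several matches were counted is not given in the sources used here, so values of both sets are uncertain.

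**Figure D4:**
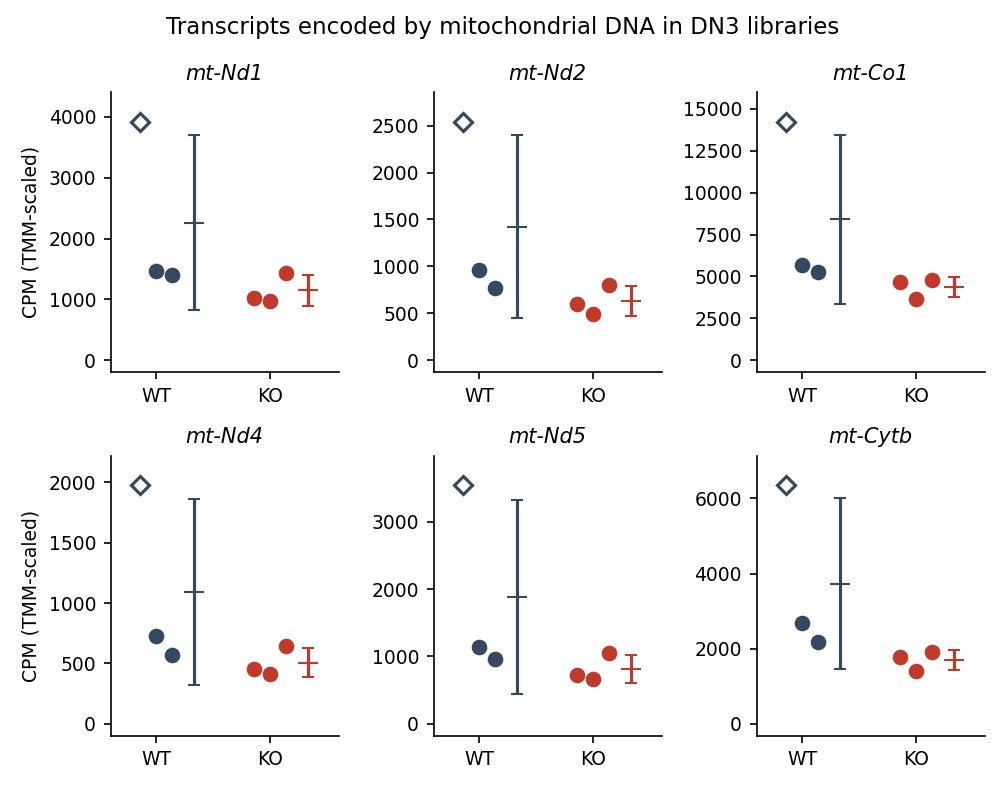
Level in CPM (y axis) of 6 genes of mitochondrial DNA in the WT and KO DN3 libraries, with mean ± SD beside each group. WT05 (open diamond) lies far above every other library for each gene, and for mt-Cytb and mt-Co1 alone all 3 KO libraries are also below WT46 and WT48.

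The pseudogenes Gm28661 and Gm28437 in that copy followed the same order. Gm28661 had 28.3, 30.3 and 25.9 CPM in KO against 74.6, 43.3 and 42.0 CPM in WT, with no overlap. Its log2 fold change was -0.90 ± 0.23 (unadjusted p = 0.00391), and -0.60 ± 0.13 without WT05 (unadjusted p = 0.00156). The ribosomal RNA mt-Rnr1 went the other way once WT05 was left out: it had 306, 296 and 331 CPM in KO and 189 and 167 CPM in WT46 and WT48, but 4505 CPM in WT05. Its log2 fold change was -2.38 ± 1.12 with all libraries and 0.81 ± 0.11 without WT05 (rank 3, unadjusted p = 7.9e-05, adjusted p = 0.33). The larger mt-Rnr2 overlapped between the groups, with 397, 430 and 623 CPM in KO against 13610, 550 and 279 CPM in WT, and gave -3.32 ± 1.27 and, without WT05, 0.22 ± 0.29. WT05, where mt-Rnr1 was highest, also had the highest share of ribosomal RNA-like counts, whose part in the result was not tested.

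Among the nuclear genes of complex IV, Cox6a2, the muscle form of a subunit, was the 1 with an unadjusted p under 0.05. It passed the count filter through KO, where it was higher. It had 1.28, 5.91 and 1.79 CPM in KO against 0.57, 0.60 and 0.21 CPM in WT, from 16, 46 and 19 counts against 2, 7 and 2. The groups did not overlap, and the log2 fold change was 2.67 ± 0.78 (unadjusted p = 0.00791), 2.75 ± 0.88 without WT05 and 1.75 without KO49. Cox6a2 is also a marker of plasmacytoid dendritic cells. The summed level of 8 such markers, Cox6a2 among them, was 647 to 1056 CPM in KO and 409 to 850 CPM in WT. Siglech and Klk1 were at 0 in all 6 libraries, and the part of such cells in the result was not tested. Polrmt, the mitochondrial RNA polymerase, was lower in every KO library (48.5 to 59.8 CPM) than in every WT library (65.0 to 68.0 CPM), with a log2 fold change of -0.30 ± 0.13 (unadjusted p = 0.044) and -0.29 ± 0.13 without WT05. It was the 1 of 21 genes of mitochondrial DNA upkeep and transcription with such a p, and Tfam, which packages mitochondrial DNA, gave 0.08 ± 0.15.

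Several top-ranked genes have no place in these pathways. Tmem108, which encodes a transmembrane protein, ranked 3 with all libraries and 2 without WT05. It had 28.8, 31.3 and 27.6 CPM in KO against 4.86, 12.6 and 13.6 CPM in WT. The groups were far apart relative to their spread, with a log2 fold change of 1.43 ± 0.30 (unadjusted p = 0.00131), and 1.16 ± 0.16 without WT05 (unadjusted p = 5.9e-05, adjusted p = 0.33). The gene ranked 1 in both fits is known only by its identifier, ENSMUSG00000102727.1, which the annotation used here does not name. ENSMUSG00000102727.1 had 12.4 to 13.1 CPM in KO against 70.0, 36.6 and 35.0 CPM in WT, a log2 fold change of -1.86 ± 0.27. It is the gene DESeq2 called (adjusted p = 1.46e-05), and without WT05 edgeR gave it the adjusted p of 0.0613.

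Trac, the constant region of the T cell receptor α chain, ranked 5, with 11.1, 14.5 and 12.2 CPM in KO against 6.00, 5.91 and 7.02 CPM in WT. Its groups did not overlap, and its log2 fold change was 0.99 ± 0.23 (unadjusted p = 0.00203), and 0.96 ± 0.23 without WT05. Sptssa, a subunit of serine palmitoyltransferase, gave 0.56 ± 0.15, the reductase gene Dhrs7 1.52 ± 0.43, Gnpnat1 of hexosamine synthesis 0.68 ± 0.21 and the magnesium transporter gene Mmgt2 0.49 ± 0.15, all without overlap. Without WT05 the list of higher genes also took in Cdkn1b, the cyclin-dependent kinase inhibitor p27. It had 85.6, 99.3 and 81.5 CPM in KO against 78.3, 64.7 and 60.0 CPM in WT, a log2 fold change of 0.40 ± 0.15, and 0.51 ± 0.12 without WT05. Arl14ep behaved likewise (0.41 ± 0.14 and 0.50 ± 0.13), whereas Gm14085, Neil3, a DNA glycosylase, and C1galt1, an O-glycan synthase, entered only when WT05 was left out, with overlapping groups before.

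On the lower side, Gas2l1, a linker of actin and microtubules, ranked 6 with 8, 2 and 5 counts in KO against 10, 24 and 15 in WT. Its levels did not overlap and its log2 fold change was -2.12 ± 0.52, and -1.92 ± 0.56 without WT05. Fam163b had 39.5, 41.9 and 41.8 CPM in KO against 61.4, 78.7 and 52.5 CPM in WT (-0.65 ± 0.17), and Lrp1, an endocytic receptor, -0.74 ± 0.21. Lhfpl2, Dusp12, a phosphatase, Luzp1 and Gm42829 had log2 fold changes of -0.62 ± 0.18, -0.52 ± 0.16, -0.62 ± 0.20 and -1.74 ± 0.56 without overlap. Snx15, a sorting nexin, and Fads2, a fatty acid desaturase, joined them without WT05, at -0.48 ± 0.14 and -0.38 ± 0.11. Spsb4, a ubiquitin ligase adaptor, had 0, 1 and 0 counts in KO against 2, 15 and 9 in WT, too few to pass the filter with all libraries. Without WT05 it was tested and ranked 6 (unadjusted p = 0.00189), and no fold is given because KO holds 1 count in all.

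Rpl29, a protein of the large ribosomal subunit, separated the mice in a way that cuts across the genotypes. It had 41.9, 46.7 and 46.9 CPM in KO and 45.6 CPM in WT46, but 256 and 357 CPM in WT05 and WT48. The log2 fold change of -2.28 ± 0.60 was therefore not a difference between the groups as a whole, and without WT46 it became -2.76 with an adjusted p of 0.0037. The DN4 libraries of the same mice repeated the split, with 44.4 CPM in WT46, 347 CPM in WT05 and 336 CPM in WT48, and with 46.0 CPM in the further mouse WT40. Of the 80 ribosomal protein genes tested it was the 1 with an unadjusted p under 0.05.

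Genes shown by the study for these libraries included several that were near the floor in DN3. Dapl1 had 1 count in all, and Ggt1, a glutathione hydrolase, 1 to 2 counts in KO against 0 to 4 in WT. Maf, a transcription factor of T cell subsets, gave a log2 fold change of 0.10 ± 0.35, and Nwd1 -0.31 ± 0.15 (unadjusted p = 0.0731) with overlapping groups. The study picked these genes on the DN4 libraries of the same mice, so their DN3 values are not fully independent of that choice.

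The stage of the cells was compared through lists of markers. Of 12 DN3 markers 0 had an unadjusted p under 0.05, and their sum was 6969 to 7716 CPM in KO and 7578 to 7924 CPM in WT. Il2ra, which encodes CD25 and is part of the sort, had 1210, 1290 and 788 CPM in KO against 710, 768 and 1247 CPM in WT. Markers of the later ISP and DP stages had a median log2 fold change of 0.435 over 9 genes tested. Over the same 9 genes it was 0.554 without WT05, 0.145 without WT48 and 0.192 with the mouse as replicate block over all 13 libraries, and without WT05 a further gene was tested. Cd2, an adhesion receptor, had 10.9, 23.5 and 12.3 CPM in KO against 6.86, 6.51 and 10.2 CPM in WT, with no overlap and a log2 fold change of 0.96 ± 0.34 (unadjusted p = 0.0221). Cd8a had 26.1, 37.1 and 24.8 CPM against 23.1, 22.8 and 10.9 CPM, also without overlap, at 0.64 ± 0.30 (unadjusted p = 0.0622, and 0.0331 without WT05). The sum of the 10 markers overlapped, at 446 to 609 CPM in KO and 362 to 593 CPM in WT. Of 7 progenitor markers of DN1 and DN2 tested, 0 had an unadjusted p under 0.05. For 2 of these 7 every KO library lay above every WT library, and for 0 every KO library lay below. Log2 fold changes were above 0 for 4 of 7 (median 0.004), and for 3 of 7 without WT05 (-0.073). The sums over all 10 progenitor markers listed overlapped, at 45.9 to 108 CPM in KO and 58.0 to 77.5 CPM in WT. Whether a few later cells in the sort account for the higher Trac, Cd2 and Cd8a was not tested.

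Genes of the pre-TCR and its signalling overlapped between the groups with all 6 libraries, and without WT05 Rag2, Cd3e and Dntt were lower in every KO library. With all libraries 8 of 15 had log2 fold changes above 0 (median 0.011), and without WT05 1 of 15, Zap70 (median -0.122), none with an unadjusted p under 0.05 in either fit. Rag1, of the recombinase, had 621, 677 and 582 CPM in KO against 983, 767 and 652 CPM in WT (-0.35 ± 0.19, and -0.18 ± 0.12 without WT05). Genes that respond to β-selection had 1 of 14 with such a p, Cd2, and 3 without WT05, Cd2, Cd8a and the costimulatory receptor gene Cd28. Their sums did not overlap, at 544 to 582 CPM in KO against 475 to 503 CPM in WT, and their medians were 0.213 and 0.253 (-0.063 in DN4). The members did not rise as a whole, with 10 of 14 above 0, and 8 of 14 without WT05. Cd69, Egr1 and Nr4a1 gave -0.36, -0.06 and -0.03. Cd27, the largest part of the sum, overlapped, with 243, 146 and 144 CPM in KO against 105, 182 and 175 CPM in WT. For markers of other cell types 0 had an unadjusted p under 0.05 for γδ T, NK, B and stromal lists, and 1 lower gene for the myeloid list. Outside the γδ T list, the T cell receptor γ genes Tcrg-V1 (0.46, unadjusted p = 0.0132) and Trgv2 (0.47, unadjusted p = 0.0487) were higher in every KO than in every WT library, with 0.39 and 0.27 without WT05. Both were picked after their values were seen. In DN4 they gave -0.44 and -0.34, and the γδ T list there had 1 of 7 genes above 0 (median -0.582). The sums of the lists were 488 to 644 CPM in KO and 465 to 534 CPM in WT for γδ T cells, 275 to 319 and 240 to 287 CPM for NK cells, and 324 to 367 and 279 to 416 CPM for B cells. Of the B cell markers 1 of 4 tested had a log2 fold change above 0 (median -0.645), 1 of 7 without WT05 (-0.434) and 0 of 10 in DN4 (-0.338). They were 59.8 to 67.3 and 53.4 to 71.4 CPM for myeloid cells and 121 to 185 and 110 to 158 CPM for stroma. Ncr1, Klrb1c, S100a8, S100a9, Foxn1 and Psmb11 were at 0 in all 6 libraries.

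Several list medians depended on whether WT05 was included. Replication histone genes, whose messages lack a poly(A) tail, summed to 907 CPM in WT05 and 70.8 to 91.2 CPM in the other 5 libraries, and their median log2 fold change went from -2.06 to -0.10 when WT05 was left out. Hist1h2bc was the member with an unadjusted p under 0.05 in both fits (-1.26 ± 0.43 and -0.69 ± 0.29). Cytosolic ribosomal protein genes, which are short, had log2 fold changes above 0 for 79 of 80 with all libraries and 50 of 80 without WT05, with medians of 0.161 and 0.022. Interferon response genes went from 19 of 21 above 0 (median 0.273) to 15 of 21 (0.092). For G2/M genes the count above 0 went up instead, from 10 to 16 of 17, with medians of 0.021 and 0.206, and it was 17 of 17 in DN4 (0.339). The proliferation gene Mki67 had 397, 560 and 619 CPM in KO, 469 and 506 CPM in WT46 and WT48 and 2003 CPM in WT05. KO45 had the lowest G2/M sum among all 6 libraries (1997 CPM, against 2940 and 3107 CPM in KO51 and KO49).

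**Figure D5:**
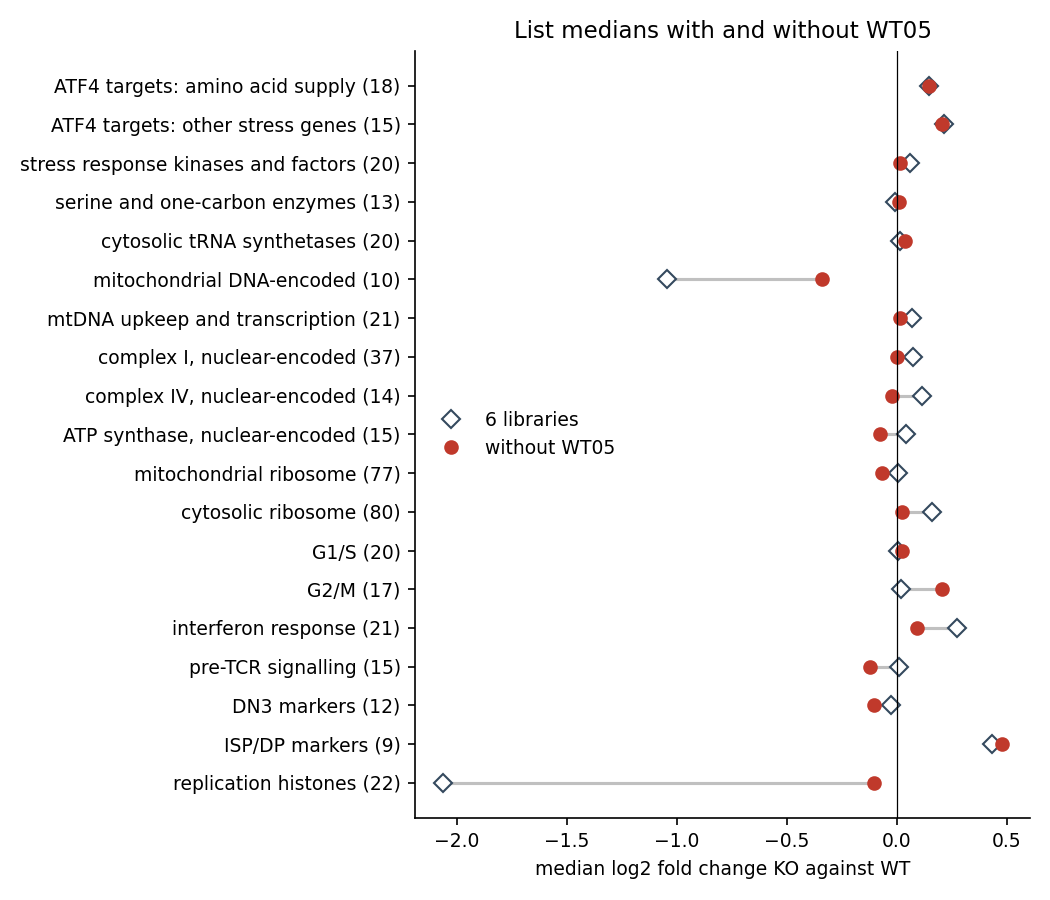
Median log2 fold change of KO over WT (x axis) for 19 gene lists (y axis, genes tested with all libraries in brackets; 10 ISP/DP markers were tested without WT05), with all 6 libraries (open diamonds) and without WT05 (red circles). The medians of mitochondrial DNA-encoded genes and replication histones move most, from -1.04 to -0.34 and from -2.06 to -0.10, while the ATF4 lists stay within 0.05 of their place.

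Immediate early and heat shock genes, which respond to handling, had 2 of 10 log2 fold changes above 0 (median -0.193), and 4 without WT05 (-0.118), and 0 with an unadjusted p under 0.05.

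Another 16 lists, 345 genes tested in all, had medians near 0. They cover nuclear-encoded complexes I, II, III and V, mitochondrial ribosome, chaperones and membrane dynamics, glycolysis, fatty acid oxidation, cholesterol synthesis, antioxidant defence, p53 targets, the BCL2 family, NOTCH targets, calcium handling, G1/S and ribosome biogenesis. Their medians lay between -0.066 and 0.091, and between -0.076 and 0.076 without WT05. In the fit of all libraries 0 of their genes had an unadjusted p under 0.05. In the glycolysis list 6 of 24 genes had log2 fold changes above 0 in each fit, and 4 (Aldoc, Pfkl, Mpc1 and Pkm) were lower in every KO than in every WT library, with values from -0.55 for Aldoc to -0.14 for Mpc1. Without WT05, Bcl2l11, which encodes the pro-apoptotic BIM (0.36), and Trp53inp1, a p53 target (0.27), were higher, and Pfkl, the liver form of phosphofructokinase (-0.27), lower at that p.

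The same genes were looked up in the DN4 libraries of these mice. In DN4 7 of 13084 genes (0.0535%) had an adjusted p under 0.05, mt-Co1, mt-Nd5, mt-Cytb and 4 pseudogenes of the chromosome 1 copy, all lower. Asns had a log2 fold change of 3.76 ± 0.54 in DN4 (adjusted p = 0.109), Slc7a3 1.60 ± 0.44, Slc7a11 2.30 ± 0.98, Trib3 1.76 ± 0.36 and Atf5 0.57 ± 0.17. For Slc7a11 the DN4 groups overlapped, since KO45 held 52.1 CPM but KO49 and KO51 held 6.06 and 8.15 CPM, below the 12.5 CPM of WT40. The ATF4 amino acid list had 15 of 17 genes above 0 there, with a median of 0.254, and the mitochondrial DNA list 0 of 10, with a median of -1.50. Of the other genes named above, some had DN4 values of the same sign and some did not. ENSMUSG00000102727.1 gave -1.08 ± 0.33, Gm28661 -1.78 ± 0.18, Gm42829 -1.10 ± 0.35, Gm14085 1.21 ± 0.36, Neil3 0.57 ± 0.17 and Tmem108 0.70 ± 0.13 in DN4. By contrast Trac gave 0.02 ± 0.45, Sptssa -0.05 ± 0.12, Dhrs7 -0.28 ± 0.24, Lhfpl2 0.47 ± 0.37, Hist1h2bc 0.48 ± 0.32 and Polrmt 0.10 ± 0.10.

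Tested as an interaction over all 13 libraries in edgeR, which leaves out that 6 mice gave a library of each stage, the genotype effect differed between the stages for 0 of 13361 genes (0.0%), and 480 had an unadjusted p under 0.05. With the mouse as replicate block in limma-voom, a fit chosen after seeing the data, the counts were 0 (0.0%) and 691. The effect in DN4 minus that in DN3 was 0.95 ± 0.82 for Asns (unadjusted p = 0.258), -0.50 ± 0.42 for mt-Co1 (unadjusted p = 0.254), -1.05 ± 0.36 for Cd2 (unadjusted p = 0.0111) and -1.84 ± 0.44 for Dhrs7 (unadjusted p = 0.00113), all on the log2 scale and with adjusted p = 1.0. In the blocked fit the values were 0.72 for Asns (unadjusted p = 0.484), -0.62 for mt-Co1 (unadjusted p = 0.0874) and -0.95 for Cd2 (unadjusted p = 0.0159).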

How the data were processed

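RNA from sorted DN3 thymocytes was sequenced by the authors as stranded mRNA libraries. Per the labels and methods, the reads were trimmed with Cutadapt, mapped to mm10 with STAR and counted per gene with featureCounts; versions, annotation and strand setting are not given in the sources used here. The deposited values are raw read counts for 47937 gene identifiers, of which 47310 were found in GENCODE M21 (GRCm38) ignoring versions. Reads themselves were not used.

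The 3 KO and 3 WT DN3 libraries were fitted alone with the edgeR 4.0.16 quasi-likelihood test in R 4.3.3, after filterByExpr (minimum count 10) and TMM, with Benjamini-Hochberg adjustment at 0.05. SE is the log2 fold change, without prior counts, divided by the root of F, and p-values measure the spread between these mice. DESeq2 1.42.0, limma 3.58.1, other scalings and filters, and each library left out were alternatives. No 2 replicates were duplicates (smallest chi-square per degree of freedom 6.19). At 10 counts, counting error alone is large, and precision is limited accordingly. The mouse numbers link the DN3 and DN4 libraries of a mouse and pair no KO with a WT mouse.

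Genes named are those called by edgeR or DESeq2, the 10 higher and 10 lower genes with the smallest p in each fit, Asns, Slc7a3, Slc7a11, list members with an unadjusted p under 0.05 in both fits, the genes of the study, Opa1 and prominent list members; genes named beyond these were chosen after their values were seen. The members and lists were chosen with earlier results of these data known. The pipeline was tested on simulated data.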

Additional observations from a re-analysis of the deposited data

Results flagged for a closer look

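In the 4 WT DN4 libraries, mt-Nd2 of WT48 lay far from the rest, at 796 CPM against 1238 to 1247 CPM in the other 3; of 18 genes looked at in this way it was the 1 with so wide a gap, and chance gives such a gap in about 1 of 20 groups. Gnpnat1 was higher in every KO than in every WT library in DN3 and lower in every one in DN4: its log2 fold changes were 0.68 and -0.65, and the DN4 effect minus the DN3 effect was -1.37 ± 0.27 (interaction in edgeR, unadjusted p = 0.000233, adjusted p = 1.0).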

How the results depend on the processing

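The count of called genes was 0 with all 6 libraries and rose to 1 without a count filter, with DESeq2's Wald test and with limma-voom quality weights, in each case ENSMUSG00000102727.1. It ranged from 0 to 1 when 1 library was left out, the 1 being Rpl29 without WT46. DESeq2 without WT05, chosen after seeing the data, called 7: ENSMUSG00000102727.1, Asns, Tmem108, mt-Rnr1 and the Y-linked Ddx3y, Kdm5d and Eif2s3y, which WT46 alone expresses. An adjusted p of 0.1 in the main test left 0.

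The number at an unadjusted p under 0.05 was 168, and 91 with library totals, 804 without a filter, 382 with DESeq2, 1080 with quality weights and 482 with all 13 libraries in one fit. Leaving out 1 library gave 87 (without KO49) to 495 (without WT48), with 396 without KO45 and 420 without WT46. The higher and lower counts were 58 and 324 with DESeq2, 579 and 501 with quality weights, and 53 and 38 with library totals, which also moved the median of all genes to 0.23. With the mouse as a replicate block over all 13 libraries in limma-voom, 0 genes were called and 198 had an unadjusted p under 0.05; the block changed no call.

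Of 827 recomputed fold changes of 44 named genes, 8 reversed: mt-Rnr1 to 0.53 with quality weights, 0.81 without WT05 and 0.81 by DESeq2 without WT05; Opa1 to 0.16 with library totals; C1galt1 to -0.025 without WT46 and -0.029 without WT48; and Maf to -0.15 with quality weights and -0.15 without KO45. With 1 library left out, mt-Rnr1 ranged from -2.91 to 0.81, C1galt1 from -0.029 to 0.378 and Maf from -0.148 to 0.232. The cause was not tested. Depth limits the low genes most, since Asns rests on 5 to 88 counts a library.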
